A study of Mus musculus with 6 samples.

Results

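Isolated SMAD1/5 sites of mouse embryonic stem cells (ESCs) are described here: places called as bound in both ESC media and lying apart from any other place of that kind. Overlapping or touching peaks of the 2 ESC peak lists were merged into 18386 regions, and 5503 of these held a peak of each list. Of these shared regions, 4249 had no other shared region within 10 kb, measured edge to edge on the same chromosome, and these are the members. They made up 77.2% of the shared regions (exact Clopper-Pearson 95% interval 76.1 to 78.3) and 23.1% of all merged regions. The remaining 1254 shared regions lay within 10 kb of another and are called clustered. Of the regions called in 1 medium only, 9013 came from LIF+BMP-4 and 3870 from LIF+serum. Members were chosen by the calls and positions of the ESC lists, so what those lists show about them is given as description, without a test. The ESD-EpiSC lists played no part in the choice.

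The study used chromatin immunoprecipitation with an anti-Smad1 antibody (clone 913C1b) followed by sequencing. One library, with no replicate, was made for each condition: E14 ESCs, an established mouse line, in LIF+serum; E14 ESCs in LIF+BMP-4 (10 ng/ml) in basal medium; and epiblast stem cells derived from ESCs (ESD-EpiSCs), kept in N2B27 medium with FGF2 and Activin A, given BMP-4 (10 ng/ml) for 1.5 h or for 24 h. Each immunoprecipitation took cells from several pooled plates of the same line. The 2 input DNA libraries were not analysed here. Both ESC conditions share LIF. Cell state, medium, length of BMP exposure and library differ together between ESCs and ESD-EpiSCs and cannot be told apart. Peaks numbered 9387 for LIF+serum (called the serum list below), 14696 for LIF+BMP-4 (the BMP-4 list), and 225 and 133 for the ESD-EpiSC times of 1.5 h and 24 h. Sequencing depth is unknown, a place without a call is not shown to be unbound, and intervals below cover counting error over regions of a single library only. Positions are mm9, 1-based and without gene names, because no mm9 genome or annotation was used here.

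BMP ligands bind paired type I and type II receptor kinases, which phosphorylate SMAD1, SMAD5 and SMAD9. These join SMAD4, enter the nucleus and bind short GC-rich elements, often beside other transcription factors. In naive mouse ESCs, BMP acts together with LIF, which signals through STAT3, to sustain self-renewal, and the Id genes are its best-known targets. Primed epiblast stem cells depend on FGF and Activin instead, and BMP drives them toward differentiation.

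The members were simple in structure. In 4138 of 4249 (97.4%, 96.9 to 97.8), the region was made of 1 peak of each list, against 1190 of 1254 clustered regions (94.9%, 93.5 to 96.0). Only 7 members held 2 LIF+serum peaks, 104 held 2 LIF+BMP-4 peaks and 3 held 3 LIF+BMP-4 peaks. Together the members took up 4256 LIF+serum peaks (45.3% of that list) and 4359 LIF+BMP-4 peaks (29.7%), and they covered 3949 kb, which is 31.1% of the sequence in merged ESC regions.

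The strongest ESC calls were mostly members. Of the 100 highest-scoring LIF+serum peaks, 78 lay in members, 20 in clustered shared regions and 2 in regions called in serum alone. Of the 100 highest LIF+BMP-4 peaks, 75 lay in members, 25 in clustered regions and 0 in regions of that medium alone. These splits between members and clustered regions are close to the 77.2% that members form of all shared regions. Members held 31.4% of LIF+serum peaks in the lowest quintile of scores, which is the lowest-scoring 20% of the list (29.3 to 33.5) and 67.0% in the highest quintile (64.8 to 69.1). For LIF+BMP-4 the shares ran from 14.1% (12.9 to 15.4) to 58.4% (56.6 to 60.2). The rise was not seen for isolation among shared regions. Among the peaks that lay in shared regions, the part in isolated ones was 80.4% (77.3 to 83.2) in the lowest quintile and 75.8% (73.7 to 77.9) in the highest for LIF+serum, and 81.8% (78.2 to 85.1) and 75.7% (73.9 to 77.5) for LIF+BMP-4.

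Ranks of members spanned nearly the whole of both lists. The score is the authors' own value per peak and is used here only to order peaks within a list; a percentile is the share of a list's peaks that score lower, with the peak itself and its ties counted at their midpoint, and a member takes its best peak of each list. The LIF+serum percentile of members ran from 0.0959 to 99.98, with a median of 62.5 and quartiles of 35.4 and 83.3. The LIF+BMP-4 percentile ran from 0.105 to 99.98, with a median of 72.5 and quartiles of 45.4 and 88.9. Clustered regions had medians of 65.1 and 76.2. The differences, isolated minus clustered, were -2.55 points (-5.56 to 0.46) for serum and -3.71 points (-5.88 to -1.53) for BMP-4. The serum interval spans both signs. When only peaks scoring at least 100 were used, the serum difference turned around, to 3.67 points, and the BMP-4 difference shrank to -0.73 points. Few clustered regions remained in that setting. With ESC lists of equal length the differences were -0.43 and -1.25 points. Percentiles in these settings were taken within the lists as shortened. Regions called in 1 medium ranked far lower, at a median percentile of 34.3 in the serum list and 38.2 in the BMP-4 list.

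The 2 media ordered the members alike only in part. Across the 4249 members the Spearman correlation of the percentiles was 0.464, given as a description because all points come from the same 2 libraries; in clustered regions it was 0.458. The percentiles lay within 10 points of each other in 1407 members (33.1%) and more than 50 points apart in 577 (13.6%). Of these 577, 407 ranked higher in the BMP-4 list and 170 higher in the serum list. The highest quintile of both lists held 842 members (19.8%, 18.6 to 21.0), while 415 reached it in the serum list alone and 870 in the BMP-4 list alone. At the other end, 887 members (20.9%) fell into the lowest quintile of at least 1 list, but only 92 (2.17%) into the lowest quintile of both. The plot of percentiles shows this crowding toward the upper right corner.

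**Figure D1:**
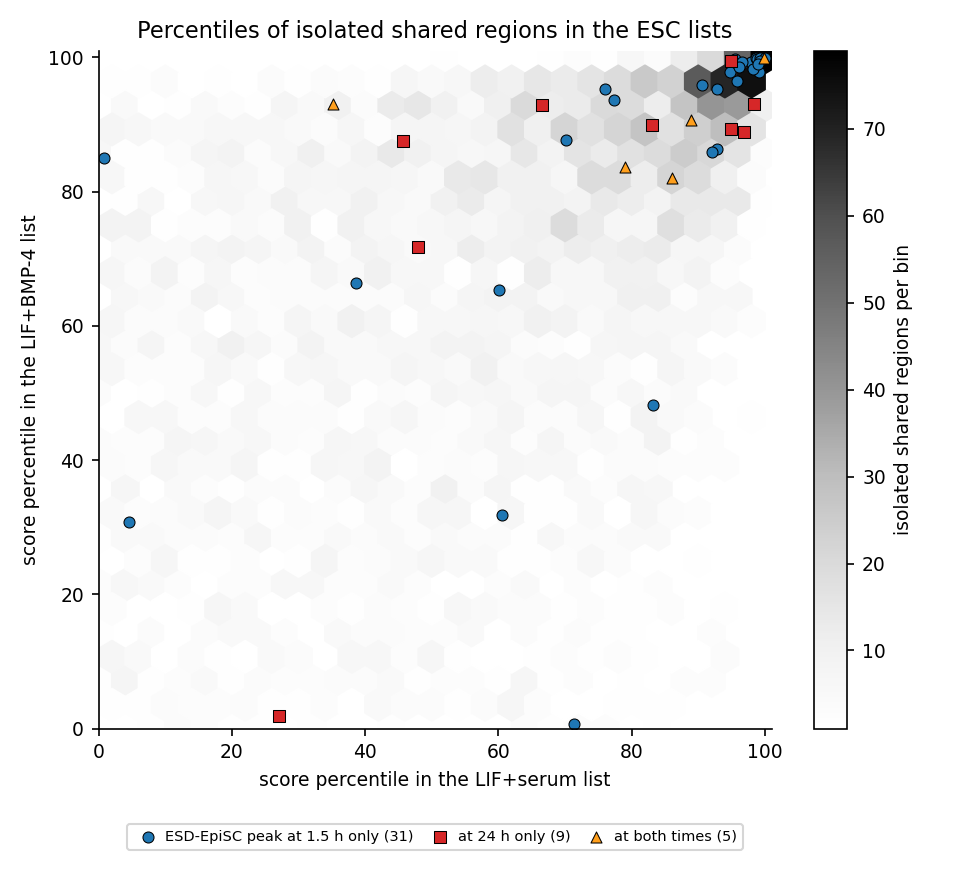
Each hexagon counts isolated shared regions by their score percentile in the LIF+serum list (horizontal, 0 to 100) and in the LIF+BMP-4 list (vertical, 0 to 100), and coloured symbols mark the members that overlap an ESD-EpiSC peak. The densest bins lie at the upper right, and 29 of the 45 marked members are above percentile 80 in both lists.

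The 10 best-ranked members, by the sum of their ranks, were ranked 23 or better in both lists. The first was on chromosome 10 at 92933863 to 92934933, with a score of 1087.43 (rank 4) in the serum list and 1269.64 (rank 5) in the BMP-4 list; it also had a 1.5 h peak of score 56.79 (rank 149) and no 24 h peak. The next, on chromosome 7 at 135010444 to 135011795, scored 782.58 (rank 8) in the serum list and 1580.4 (rank 4) in the BMP-4 list and had no ESD-EpiSC peak. On chromosome 2 at 157384621 to 157386589, the scores were 797.59 and 1163.58, rank 7 in both lists, and this member was called in all 4 libraries. Among the 10, the members at 92933863 and 157384621 were called in ESD-EpiSCs, while the share over all members was 1.06%.

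The other 7 show how differently such strong sites are placed. On chromosome 4, the member at 147789264 to 147790279 ranked 9 in both lists and had no other ESC peak for 183 kb on either side. Also on chromosome 4, the member at 154346205 to 154347617 ranked 11 in the serum list and 15 in the BMP-4 list, with the next ESC peak 140 kb away. By contrast, the members on chromosome 13 at 84376094 to 84377386 (ranks 12 and 8) and on chromosome 8 at 81111759 to 81112938 (ranks 13 and 11) passed the rule narrowly, with another shared region at 10.274 kb and 10.951 kb. The member on chromosome 11 at 19919927 to 19921709 (ranks 19 and 20) had a LIF+BMP-4-only peak 1.23 kb away. The remaining pair lay on chromosome 8 at 11608053 to 11610562 (ranks 5 and 23) and on chromosome 10 at 38860321 to 38861442 (ranks 18 and 13). None of these 7 had an ESD-EpiSC peak.

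A few members were near the top of one medium and near the bottom of the other. The largest difference toward the BMP-4 list was on chromosome 12 at 12183174 to 12184867, with a score of 256.35 (rank 472) in the BMP-4 list and 50.42 (rank 9276) in the serum list. Next came the chromosome 12 member at 16022219 to 16022943 (ranks 645 and 9156) and the chromosome 3 member at 89931470 to 89932406 (ranks 214 and 8741). Toward the serum list, the member on chromosome 4 at 133391013 to 133391622 scored 175.15 (rank 586) there and 51.98 (rank 13808) in the BMP-4 list. It was followed by chromosome 6 at 83994454 to 83995480 (ranks 1180 and 14585) and chromosome 17 at 17761111 to 17763040 (ranks 623 and 13401). The weaker call of each of these 6 scored between 50.32 and 52.9, close to the lowest score of its list, so their membership rested on a marginal call. None had an ESD-EpiSC peak.

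Peaks of members were wider in serum. The LIF+serum peak had a median width of 859 bp (quartiles 709 and 1015, range 304 to 4313) and the LIF+BMP-4 peak one of 557 bp (460 and 685, range 227 to 2219). The LIF+serum peak was the wider of the pair in 3952 members (93.0%, 92.2 to 93.8), and the median ratio of serum to BMP-4 width over all members was 1.49. In 2971 members (69.9%, 68.5 to 71.3) the LIF+BMP-4 peak lay wholly inside the LIF+serum peak, and the reverse was so in 84 (1.98%). The whole lists differ in the same direction, with median widths of 811 bp and 500 bp, so this is not particular to the members. Fragment length and caller settings of each library were not given in the sources used here, and their part in the widths was not tested.

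Midpoints of the LIF+serum and LIF+BMP-4 peaks of a member lay a median of 71.5 bp apart. Members were picked by overlapping or touching peaks of both lists, which already limits that distance. No expected distance was computed. The midpoints were within 100 bp in 2779 members (65.4%, 64.0 to 66.8) and within 200 bp in 3798 (89.4%, 88.4 to 90.3). For clustered regions these shares were 59.9% (57.1 to 62.6) and 82.5% (80.2 to 84.5). The pair is made of the best-scoring peak of each list. Regions of 1 peak of each list formed 97.4% of members and 94.9% of clustered regions. The part of this in the midpoint distances was not tested.

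Width rose with score within the members. In LIF+serum the median peak width went from 715 bp in the lowest quintile of scores to 1005 bp in the highest, with 755.5, 804 and 880 bp between. In LIF+BMP-4 it went from 400 to 674 bp, with 449, 496 and 562 bp between. Members were narrower than clustered regions, whose medians were 909 bp in the serum list and 593 bp in the BMP-4 list. Among peaks scoring at least 100, however, the members' LIF+serum median was 5.5 bp above that of clustered regions, of which few remained. The widest member, on chromosome 4 at 145036226 to 145040538, spanned 4313 bp, and the narrowest, on chromosome 8 at 52138138 to 52138505, spanned 368 bp.

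Isolation from other shared regions was not isolation from all ESC peaks. Of the 4249 members, 1395 (32.8%, 31.4 to 34.3) had a region called in 1 medium within 10 kb, although 3929 (92.5%) had none within 1 kb. The other 2854 (67.2%, 65.7 to 68.6) had no ESC peak of any kind within 10 kb. Neighbours were few: 1018 members had 1 such region within 10 kb, 285 had 2, 67 had 3, 23 had 4 and 2 had 5. Clustered regions had a 1-medium region within 10 kb more often, in 630 of 1254 (50.24%, 47.4 to 53.0). The difference, isolated minus clustered, was -17.4 percentage points. It was -6.68 points when only peaks scoring at least 100 were used, which left few clustered regions.

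The next ESC peak of any kind lay at a median of 18.8 kb (quartiles 6.30 and 51.7 kb, range 5 bp to 4017 kb). The next shared region lay at a median of 83.8 kb (quartiles 31.6 and 241 kb). It was 10 to 20 kb away for 569 members, 20 to 50 kb for 987, 50 to 100 kb for 783, 100 to 500 kb for 1439 and beyond 500 kb for 471. No other ESC peak lay within 50 kb of 1090 members (25.7%), within 100 kb of 577 (13.6%) or within 500 kb of 62 (1.46%). The histogram of distances shows both spacings against the limit of the rule.

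**Figure D2:**
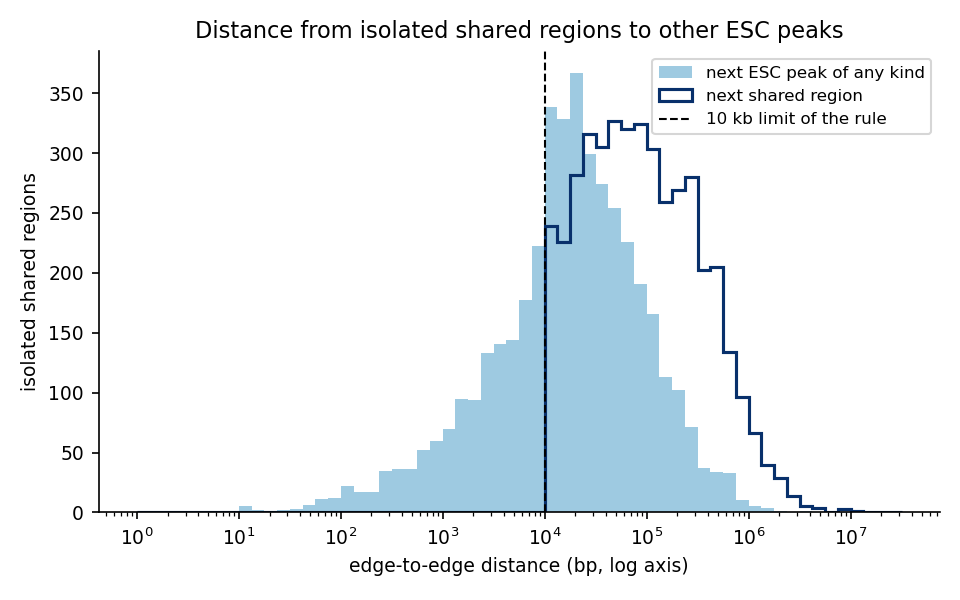
Number of isolated shared regions by edge-to-edge distance (log axis, bp) to the next ESC peak of any kind (filled) and to the next shared region (line), with the 10 kb limit dashed. The filled distribution extends below the limit because 1395 members had a peak of 1 medium within 10 kb, while the line starts at the limit by construction.

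The nearest neighbour was most often a LIF+BMP-4-only region. It was of that kind for 2312 members (54.4%), a LIF+serum-only region for 1057 (24.9%), another member for 786 (18.5%) and a clustered region for 94 (2.21%). Among neighbours called in 1 medium, LIF+BMP-4-only regions formed 68.6% (67.0 to 70.2), against 70.0% (69.2 to 70.8) of all 1-medium regions. The mix of neighbours thus followed the mix of the lists. The neighbours within 10 kb ranked low in their lists, as 1-medium regions elsewhere did, but somewhat higher than those. LIF+BMP-4-only regions within 10 kb of a member had a median percentile of 42.6, against 37.3 for those elsewhere, and LIF+serum-only regions had 37.5 against 33.8.

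Members with such neighbours ranked slightly higher. With no other ESC peak within 10 kb, the median percentile was 61.1 in the serum list and 71.8 in the BMP-4 list. With a 1-medium region within 10 kb, it was 65.2 and 73.9. Peak widths went the same way, with medians of 842 against 897 bp in the serum list and 547 against 581 bp in the BMP-4 list. Members more than 500 kb from the next shared region had a median percentile of 58.4 in the serum list and 70.1 in the BMP-4 list, and median widths of 778 and 513 bp. Those at 10 to 20 kb had 63.3 and 72.4, with 902 and 578 bp.

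The most remote members included both strong and weak calls. On chromosome X at 110229563 to 110230333, a member with no other ESC peak for 4017 kb scored 302.24 (rank 128) in the serum list and 281.36 (rank 363) in the BMP-4 list. Also on chromosome X, the member at 57435671 to 57436438, alone for 2152 kb, ranked 3704 and 14018. The third, on chromosome 2 at 47051427 to 47051933, alone for 1657 kb, ranked 7687 and 2170. Members just outside the limit of the rule lay 10.053 kb from the next shared region, on chromosome 15 at 99622720 to 99623492 and at 99633546 to 99634213, which are each other's neighbours, and on chromosome 17 at 30734934 to 30736010. Just inside it, and so clustered, were regions with gaps of 9.998 kb, on chromosome 2 at 57096452 to 57097311, and 9.979 kb, on chromosome 9 at 120588418 to 120589394 and 120599374 to 120600328.

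Members were spread over all autosomes and chromosome X, in unequal parts of the shared regions. The part that was isolated was lowest on chromosome 8, at 283 of 428 (66.1%, 61.4 to 70.6), and highest on chromosome 18, at 126 of 143 (88.1%, 81.6 to 92.9). Chromosomes 13 (87.0%, 82.3 to 90.8) and 12 (86.4%, 81.0 to 90.8) came next. Chromosomes 7 (72.1%, 66.9 to 76.8) and 10 (71.2%, 66.1 to 76.0) were among the lower ones, and the share over all chromosomes was 77.2%. These shares follow from the rule and are given without a test. Chromosome 8 held 6.66% of the members but 11.6% of the clustered regions. Chromosome X held only 24 members, at a median percentile of 38.7 in the serum list and 48.1 in the BMP-4 list, below the members' medians on every autosome.

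**Figure D3:**
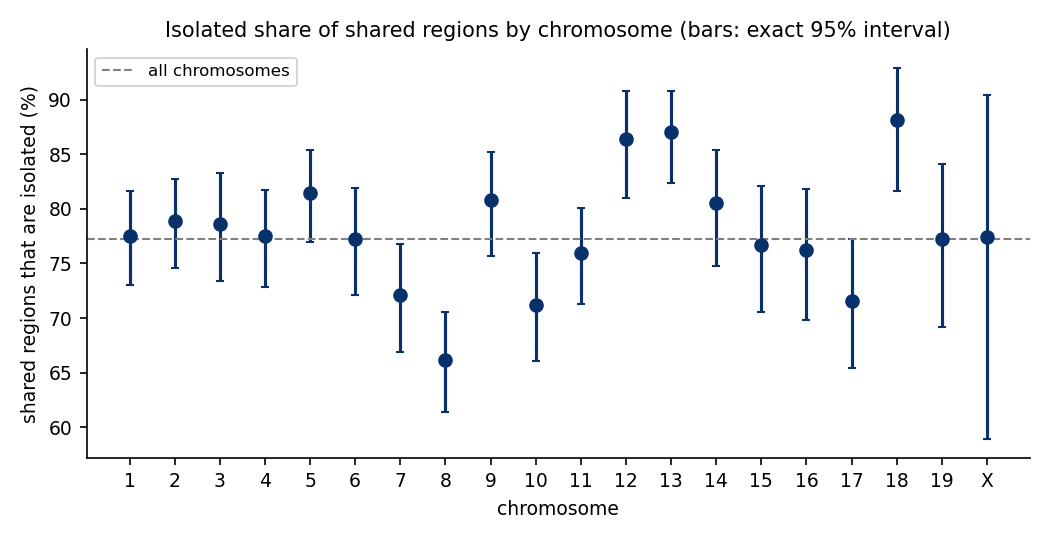
Share of shared ESC regions that are isolated (vertical, percent; the axis does not start at 0) on each chromosome, with exact 95% binomial intervals as bars and the share over all chromosomes dashed. The points run from 66.1% on chromosome 8 to 88.1% on chromosome 18, around the dashed line at 77.2%.

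Few members were called in the primed cells, whose short lists of 225 and 133 peaks limit how many could be. A 1.5 h ESD-EpiSC peak overlapped 36 of the 4249 members (0.847%, 0.594 to 1.17), against a background of 0.354% of all merged ESC regions. A 24 h peak overlapped 14 (0.329%, 0.180 to 0.552), against 0.185%. Either time gave 45 members (1.06%, 0.774 to 1.41), against 0.484%, with 31 at 1.5 h only, 9 at 24 h only and 5 at both times. The members thus held 45 of the 89 merged regions that any ESD-EpiSC peak met. Seen from the other side, 46 of 225 peaks at 1.5 h and 14 of 133 at 24 h lay on members. These were 59.0% (47.3 to 70.0) of the 78 peaks at 1.5 h that met any ESC region and 38.9% (23.1 to 56.5) of the 36 at 24 h. Members cover 31.1% of the sequence in ESC regions.

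Isolated and clustered shared regions could not be told apart in this readout. Among clustered regions, 10 of 1254 (0.797%, 0.383 to 1.46) met an ESD-EpiSC peak at either time. The difference, isolated minus clustered, was 0.262 percentage points, with a Newcombe 95% interval of -0.454 to 0.770. It was 0.289 points (-0.345 to 0.722) at 1.5 h and -0.0692 points (-0.617 to 0.250) at 24 h. All 3 intervals hold 0. With only ESC peaks scoring at least 100, the difference was 1.65 points, from shorter lists. Members formed 93.0% of shared regions in that setting, so few clustered regions remained, and no interval is given for it.

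Regions called in 1 medium met ESD-EpiSC peaks less often than members. The share at either time was 0.233% (0.144 to 0.356) for LIF+BMP-4-only regions, a difference of 0.826 points (0.532 to 1.19), and 0.336% (0.179 to 0.574) for LIF+serum-only regions, a difference of 0.723 points (0.366 to 1.105). At 24 h the difference from LIF+serum-only regions was 0.200 points (-0.0179 to 0.435), an interval that holds 0. Members rank higher and are wider than 1-medium regions, so the comparison was repeated within quintiles of score. In the highest quintile of LIF+BMP-4 scores, 37 of 1712 members (2.16%) and 3 of 672 LIF+BMP-4-only regions (0.446%) met an ESD-EpiSC peak. The difference was 1.71 points (0.674 to 2.57). Median LIF+BMP-4 peak widths were 674 and 638 bp, but overlap was counted over the whole region. In members the region also holds the LIF+serum peak, so region widths were not matched. Over all members the median region width was 881 bp, against 557 bp for the LIF+BMP-4 peak. In the other 4 quintiles the differences lay between -0.186 and 0.347 points and every interval held 0. In the highest quintile of LIF+serum scores, 30 of 1257 members (2.39%) and 1 of 218 LIF+serum-only regions (0.459%) did, with a difference of 1.93 points (-0.283 to 3.00), and the intervals of the other 4 held 0 too. Ranks still differed inside the highest quintiles. The best LIF+BMP-4-only region ranked 223 in its list, against 4 for the best member. The best LIF+serum-only region ranked 48, against 2 for the best member there. The part of rank that remained within a quintile was not tested, and neither was the part of region width.

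Members called in ESD-EpiSCs were concentrated among the strongest ESC sites. Their median percentile was 92.9 in the serum list and 93.7 in the BMP-4 list, against 62.1 and 72.3 for the 4204 members with no ESD-EpiSC peak. In the highest quintile of LIF+BMP-4 scores the share was 2.16% (1.53 to 2.97), and in the 4 quintiles below it ran from 0.148% to 0.512%. In LIF+serum it was 2.39% (1.62 to 3.39) in the highest quintile, 0.813% (0.352 to 1.60) in the next and 0.254% to 0.473% below. A high rank in both media went with the highest share: 29 of 842 members (3.44%, 2.32 to 4.91) in the highest quintile of both lists, 8 of 870 (0.920%, 0.398 to 1.80) in that of LIF+BMP-4 alone, 1 of 415 (0.241%, 0.00610 to 1.34) in that of LIF+serum alone and 7 of 2122 (0.330%, 0.133 to 0.678) in neither. Among clustered regions in the highest quintile of both lists it was 5 of 268 (1.87%, 0.608 to 4.30). That interval overlaps the one of members. Of the 46 members ranked 100 or better in both ESC lists, 6 (13.04%, 4.94 to 26.3) were called in ESD-EpiSCs, against 1.06% of all members. Most of these 46 still had no primed-state call.

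**Figure D4:**
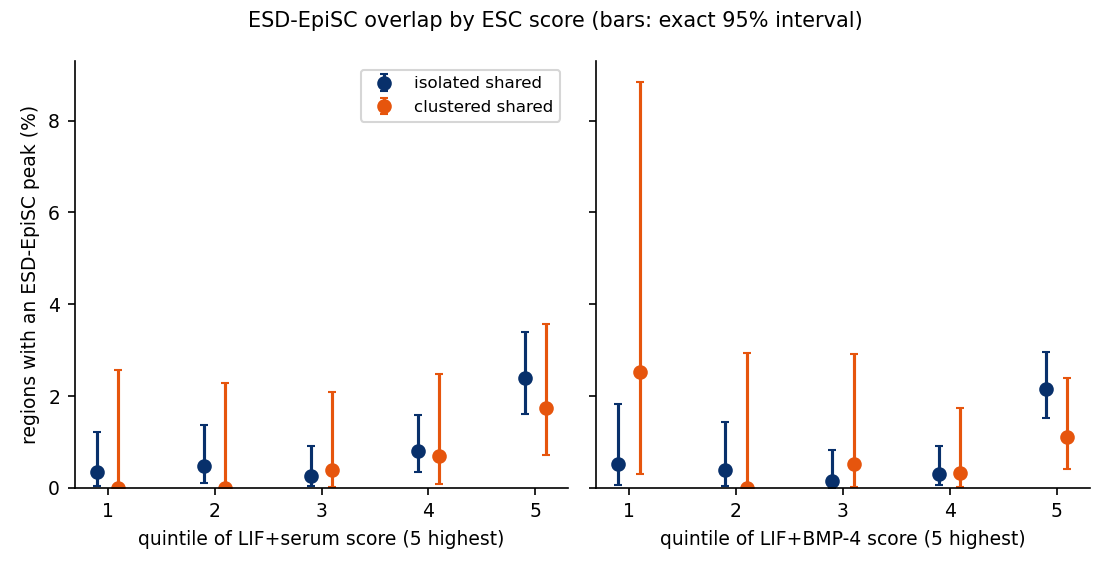
Percent of isolated (blue) and clustered (orange) shared regions that overlap an ESD-EpiSC peak of either time, by quintile of LIF+serum score (left) and LIF+BMP-4 score (right), with exact 95% binomial intervals as bars. For isolated regions the highest quintile reaches 2.39% and 2.16%, above the other quintiles, and the intervals of isolated and clustered regions overlap in every quintile.

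These members were also wider, with median LIF+serum and LIF+BMP-4 widths of 1100 and 720 bp, against 857 and 556 bp for those with no ESD-EpiSC peak. Width and score rise together, and a wider region offers more sequence to meet a peak; the part of width in the overlap was not tested separately from score. Members with no other ESC peak within 10 kb met an ESD-EpiSC peak in 34 of 2854 (1.19%, 0.826 to 1.66), and those with a 1-medium neighbour in 11 of 1395 (0.789%, 0.394 to 1.41). The difference of 0.403 points had an interval of -0.301 to 0.986. All 5 members called at both times had no other ESC peak within 10 kb, as did 67.2% of all members.

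Peaks of the primed cells that overlapped members lay mostly near the middle of the ESC sites. Of the 46 peaks at 1.5 h on members, 38 (82.6%, 68.6 to 92.2) lay wholly inside both the best LIF+serum and the best LIF+BMP-4 peak, as did all 14 at 24 h. Their midpoints were a median of 69 bp from the middle of the ESC overlap at 1.5 h (quartiles 35 and 229 bp) and 36 bp at 24 h (11.9 and 111 bp). Their overlap with a member, by which these peaks were picked, already limits that distance, and no expected distance was computed. The peaks were narrow, with a median of 157.5 bp at both times. ESD-EpiSC peaks elsewhere had medians of 116 bp at 1.5 h and 99 bp at 24 h.

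At 1.5 h, 6 of the 36 members (16.7%, 6.37 to 32.8) carried more than 1 called peak, with 2 in 2 members and 3 in 4 members. Among clustered regions with a 1.5 h peak it was 1 of 7 (14.3%, 0.361 to 57.9), so this was not particular to members. The chromosome 17 member at 12934120, ranked 94 in the serum list and 136 in the BMP-4 list, held 3 peaks of scores 70.79, 253.12 and 72.1. The chromosome 11 member at 22871586, ranked 359 and 217, held 3 of scores 62.86, 90.21 and 98.35. At 24 h each of the 14 members held 1 peak. These 2 members were chosen after their values were seen, and whether such groups are separate sites or 1 interrupted call was not tested.

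The 5 members called at both times covered a wide range of ESC ranks. The chromosome 2 member at 157384621 to 157386589, rank 7 in both ESC lists, scored 178.08 (rank 15) at 1.5 h and 50.55 (rank 127) at 24 h. On chromosome 10 at 30347029 to 30348593, the scores were 137.81 (rank 1042) in the serum list, 169.92 (rank 1360) in the BMP-4 list, 69.53 (rank 87) at 1.5 h and 263 (rank 2) at 24 h. On chromosome 6 at 127286387 to 127287562, they were 124.84 (rank 1307), 127.29 (rank 2650), 136.29 (rank 27) and 384.56 (rank 1). The chromosome 6 and chromosome 10 members were thus the 2 highest calls of the 24 h list while standing well below the top of the ESC lists.

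The remaining members of this set lay on chromosomes 8 and 15. On chromosome 8 at 131178173 to 131179146, the scores were 104.56 (rank 1971) in the serum list, 132.91 (rank 2398) in the BMP-4 list, 100.8 (rank 42) at 1.5 h and 61.74 (rank 58) at 24 h. On chromosome 15 at 93351298 to 93352185, they were 62.3 (rank 6080) in the serum list and 192.22 (rank 1008) in the BMP-4 list, with 2 peaks at 1.5 h (57.83 and 52.4) and 1 at 24 h (51.88). The 24 h peak of this member overlapped neither of its 1.5 h peaks, as the map of called peaks shows.

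**Figure D5:**
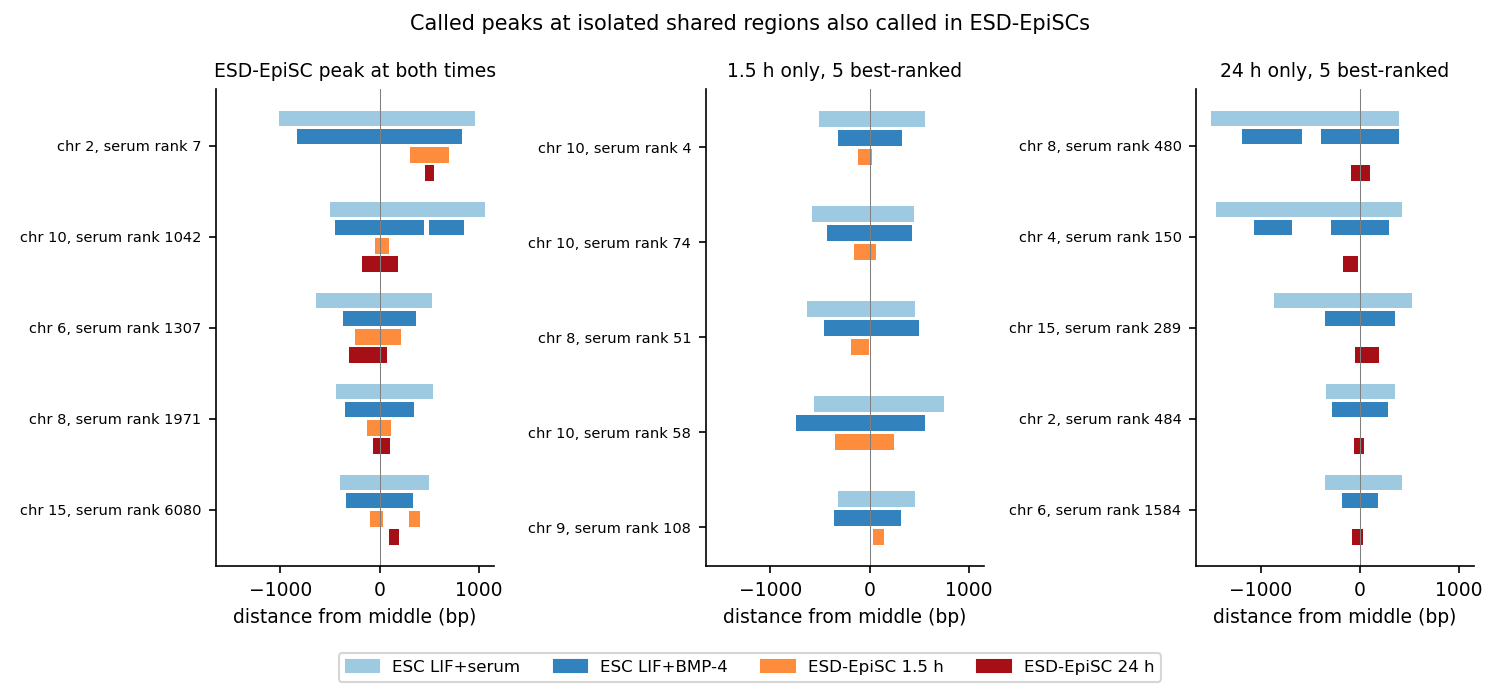
Called peaks of the 4 libraries as bars along the distance (bp) from the middle of the overlap of the best LIF+serum and LIF+BMP-4 peak, for the 5 members called at both ESD-EpiSC times and for the 5 best-ranked called at 1.5 h only and the 5 best-ranked called at 24 h only; bar length is peak width and not signal. Each ESD-EpiSC bar lies within the span of the LIF+serum bar of its member and is shorter than that bar, and in the chromosome 2 member of rank 7 they sit to one side, 504.5 bp and 503 bp from the middle.

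Members called only early included some of the best ESC sites. Beside the chromosome 10 member of rank 4 described above, they were led by chromosome 10 at 79201640 to 79202664, with scores of 367.19 (rank 74) in the serum list, 968.16 (rank 14) in the BMP-4 list and 94.09 (rank 49) at 1.5 h. Then came chromosome 8 at 125388561 to 125389692, with 424.98 (rank 51), 710.63 (rank 44) and 84.12 (rank 59). The chromosome 10 member at 12810128 to 12811620 scored 408.28 (rank 58), 614.32 (rank 56) and 382.82, which is rank 4 of the 1.5 h list. The chromosome 9 member at 92830346 to 92831170 scored 315.21 (rank 108), 796.1 (rank 32) and 71.79 (rank 81). Over all 36 members with a 1.5 h peak, the median rank was 581 in the serum list and 556 in the BMP-4 list.

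Members called only at 24 h were led by a site on chromosome 8 at 42023124 to 42025022, with scores of 188.19 (rank 480) in the serum list, 554.05 (rank 74) in the BMP-4 list and 106.74 (rank 8) at 24 h. On chromosome 15 at 61923523 to 61924910, the scores were 227.78 (rank 289), 157.41 (rank 1642) and 142.14 (rank 3). The chromosome 4 member at 153006276 to 153008144 ranked 150 in the serum list, 1008 in the BMP-4 list and 123 at 24 h. Those on chromosome 2 at 146127890 to 146128592 and on chromosome 6 at 133444660 to 133445437 ranked 484 and 1584 in the serum list, 1575 and 1474 in the BMP-4 list, and 56 and 59 at 24 h. Over all 14 members with a 24 h peak the median rank was 1445.5 in the serum list and 1524.5 in the BMP-4 list. The difference between the 2 times in ESC rank was not tested, since 5 members belong to both sets and the lists differ in length. Of the 10 highest peaks of each ESD-EpiSC list, 3 at 1.5 h (30%, 6.67 to 65.2) and 5 at 24 h (50%, 18.7 to 81.3) lay on members. Of the 20 highest, 6 at 1.5 h and 5 at 24 h did. Over the whole lists the shares were 20.4% at 1.5 h and 10.5% at 24 h.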

How the data were processed

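Per the submitters' processing notes, Bowtie 1.1.0, Picard and MACS 1.4.2 were used on the mm9 build. The notes do not say which tool did which step. What reads were filtered and which control each list had was not given in the sources used here. For every immunoprecipitated library the authors deposited a list of peaks, with start, end and a score for each. The scale of this deposited score is not stated, and it was used only to rank peaks within its list. Depth per library is unknown.

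Regions, distances and overlaps (at least 1 bp) were computed with pandas 2.3.3, numpy 2.4.6, scipy 1.17.1 and statsmodels 0.14.6 under Python 3.11.15, and drawn with matplotlib 3.10.9. Score quintiles are 5 equal parts of a list by score. A member takes its best-scoring peak of each list. Shares carry exact Clopper-Pearson and differences of shares Newcombe 95% intervals. Intervals for differences of median percentiles combine the order-statistic 95% intervals of both medians. With 1 library per condition no p-value is given. Merging, distances and overlaps were checked on simulated peaks. Named positions are the 10 members with the smallest rank sum; those with ESD-EpiSC peaks at both times; the 5 best-ranked with peaks at 1.5 h only or 24 h only; the 3 with the largest percentile differences each way; the 3 most remote; the 3 nearest each side of 10 kb; and the widest and narrowest. Members and rules were chosen with earlier results of these data known. The gene and promoter tables at hand are GRCm38.p6 and were not used, so gene names, sequences and motifs are not reported here.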

Additional observations from a re-analysis of the deposited data

How the results depend on the processing

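No paired analysis was possible because there was 1 library for each condition, and no replicate could be left out. The motif and gene-start settings that need an mm9 genome or annotation were not run. The limits for calling a value moved were its 95% interval (exact for shares, order statistics for medians) or 1.5 times for the count of members. Isolation beyond 5 kb or 20 kb, in place of 10 kb, gave 84.5% or 66.9% isolated among shared regions; at 20 kb, 31.2% of members had a 1-medium region within 10 kb. With only ESC peaks scoring at least 100 there were 1322 members, 93.0% of shared regions. Of these, 2.19% met a 1.5 h peak, 0.832% a 24 h peak and 2.65% either, 1.65 points more than clustered regions. Their median LIF+BMP-4 percentile was 75.3, their median widths were 1023.5 bp (LIF+serum) and 683 bp (LIF+BMP-4), and 17.3% had a 1-medium region within 10 kb. In that setting 2 comparisons with clustered regions turned: members ranked 3.67 points higher in LIF+serum and were 5.5 bp wider there. Few clustered regions remained for these 2 comparisons and for the 1.65 points, and no intervals are given for them. With ESC lists of equal length, 79.1% of shared regions were isolated, the median percentiles were 67.3 (LIF+serum) and 68.2 (LIF+BMP-4), the widths 876.5 and 594 bp, and 27.9% had a 1-medium region within 10 kb. In settings that dropped ESC peaks, percentiles were taken anew within the remaining list. They are therefore not on the scale of the main percentiles. Shorter lists give fewer regions and larger gaps by construction, and for the other moves the cause was not tested. Requiring peak pairs to overlap by 50% of the shorter, dropping peaks over 5 kb together with chromosome Y and unplaced sequences, removal of chromosomes 8 and X, extension of ESD-EpiSC peaks by 1 kb and removal of those of 80 bp or less moved none of the values that describe the members. Within tertiles of the better percentile, the ESD-EpiSC share of members minus clustered regions was 0.0732, -0.116 and 0.959 points from lowest to highest. Within tertiles of region width, chosen after seeing the data, it was 0.0914, -0.180 and 1.14 points.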

Other observations

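Members called in ESD-EpiSCs were unevenly spread over chromosomes. Chromosome 6 held 8 among its 228 members (3.51%) and chromosome 8 held 8 among 283 (2.83%), against 1.06% of all members. Chromosomes 14, 16, 18, 19 and X held 0, among 186, 157, 126, 102 and 24 members. The same share for the other ESC regions of each chromosome is not given here. Over chromosomes 6 and 8 together the share was 16 of 511 (3.13%, exact 95% interval 1.80 to 5.04), against 29 of 3738 (0.776%, 0.520 to 1.11) on all others. Chromosomes 6 and 8 were singled out after their values were seen, and the interval does not allow for that choice. Median percentiles of members in the serum and BMP-4 lists were 69.4 and 75.3 on chromosome 6 and 65.2 and 77.04 on chromosome 8, against 62.5 and 72.5 over all members; the part of rank in the uneven spread was not tested.

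Some members with a primed-state call ranked low in at least 1 ESC medium. The member on chromosome 6 at 58546106 ranked 6844 in the serum list and 14387 in the BMP-4 list, with a 24 h peak of rank 91 whose midpoint lay 4 bp from the middle of the ESC overlap. The member on chromosome 1 at 134696748 ranked 8954 and 10147, with a 1.5 h peak of rank 194 at 184 bp. The member on chromosome 12 at 25783347 ranked 3710 and 10027 and held the 1.5 h peak of rank 11. These 3 were chosen after their values were seen.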
